A study of Mus musculus with 4 samples.

Results

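Kinesins are motor proteins that walk along microtubules or take them apart, and microtubule-associated proteins stabilise, cap or link these filaments. In neural progenitor cells the microtubule system moves the nucleus through the cell cycle, builds the mitotic spindle and prepares the growth of axons and dendrites. DHX9 is a helicase that opens RNA duplexes and binds many nuclear transcripts, and the data show where it was mapped on the RNA of these genes. The genes were chosen by name: every autosomal protein-coding gene whose symbol is Kif followed by a number, and 24 named genes for microtubule-associated proteins. They made 61 genes, 37 of them kinesins, and their annotated spans held 375 of the 43106 DHX9 peaks of the series.

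The cells were neural progenitor cells derived from WT26, a male mouse embryonic stem cell line of C57BL/6x129sV background, and were kept in medium with EGF and FGF2. RNA crosslinked to protein by ultraviolet light was pulled down with a rabbit antibody to DHX9 or with rabbit IgG as the control, in 2 biological replicates each, by FLASH, which sequences the RNA crosslinked to an immunoprecipitated protein together with its strand. All cells came from this 1 untreated line, and the antibody was the only stated difference between the groups. The authors deposited 1 peak list for the 4 libraries together, which gives positions and strands but no height, so no value per library, no depth and no replicate error entered what follows. Expression was not measured here, so a gene in which no peak was called may be unbound or silent, and no comparison below carries a test.

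Peaks were present on the progenitor genes Slc1a3 (122 peaks) and Ptprz1 (64), while the defining markers Sox2, Pax6 and Nes held none. In all, 9 of 15 progenitor markers held a peak, as did 1 of 8 neuron, 3 of 7 glia, 0 of 6 pluripotency, and 3 of 6 fibroblast and mesoderm markers. The neuron marker was Map2, and Col3a1, a fibroblast collagen gene, held 28 peaks. A peak list cannot show how much of another cell type's RNA a culture held, and its part in the results was not tested.

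Of the 61 genes, 28 (45.9%) carried at least 1 peak, 16 of the 37 kinesin genes (43.2%) and 12 of the 24 genes for microtubule-associated proteins (50%). Among all 20665 autosomal protein-coding genes, 19.4% did. Longer genes carry peaks more often, and the 61 genes were long, with a median span of 56.7 kb against 17.5 kb. In 12 of the 61 genes there were 10 peaks or more, a count reached by 5.0% of autosomal protein-coding genes. At least 3 peaks were held by 21 of the 61, against 11.7% of all, and 50 or more by 1, Macf1, against 0.658%. The median gene with a peak held 8 peaks, against 4 over all autosomal protein-coding genes with a peak. That median was 4 in the kinesins and 11.5 in the genes for microtubule-associated proteins. Per length, the 28 genes held 0.123 peaks per kb of span together, and all autosomal protein-coding genes with a peak held 0.114 per kb. Without Macf1, the gene with most peaks, the pooled value was 0.0988 per kb, below that of all genes. The median density was also lower, 0.0893 per kb against 0.104.

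**Figure D1:**
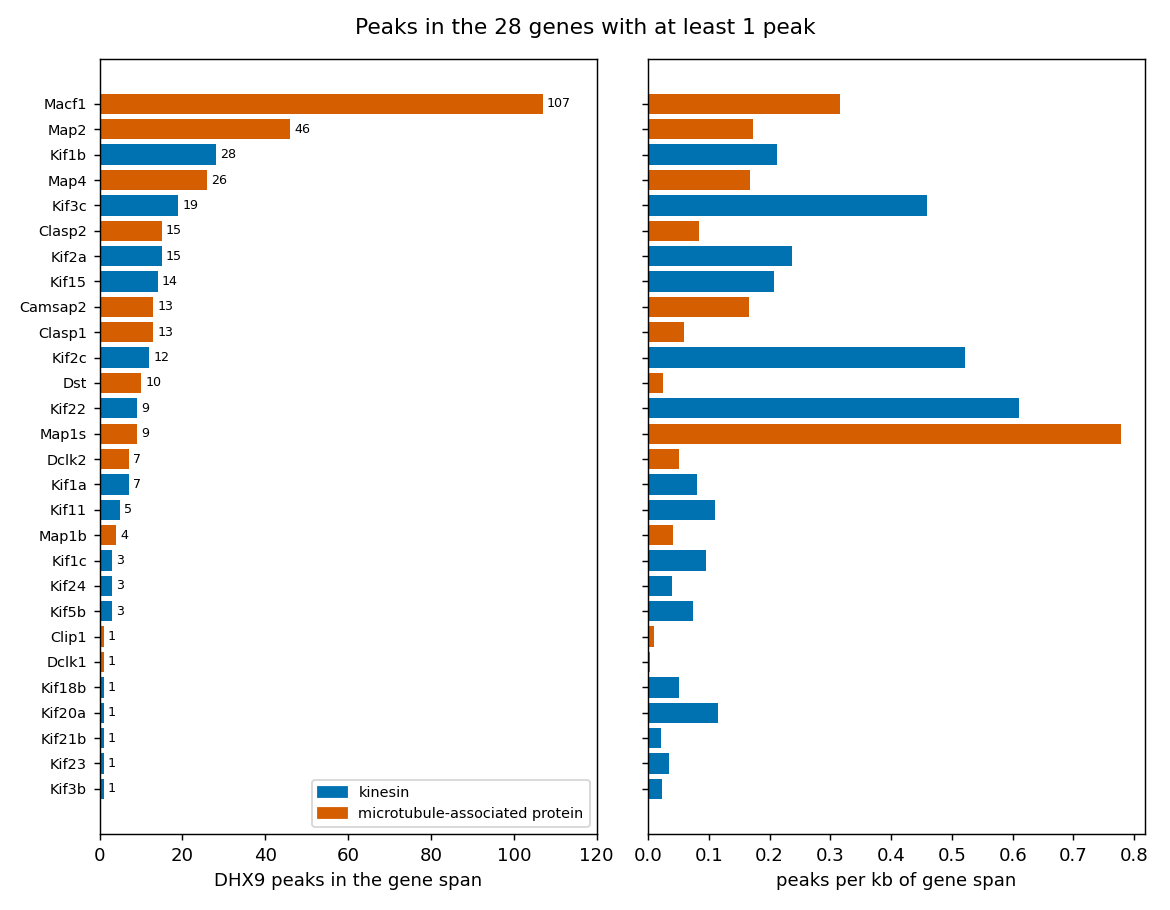
Number of DHX9 peaks in the span of each gene with a peak (left) and peaks per kb of that span (right), for kinesins (blue) and microtubule-associated proteins (orange). Macf1 had the most peaks, 107, while the short gene Map1s had the most per kb, 0.779.

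Set beside genes of like length, the kinesin genes with a peak were mostly shorter ones, and those for microtubule-associated proteins mostly longer ones. Of the kinesin genes under 20 kb, 3 of 6 had a peak, and of those from 20 kb to under 50 kb 8 of 14 did, where all autosomal protein-coding genes gave 9.0% and 26.2%. From 50 kb to under 100 kb, 4 of 9 kinesin genes had a peak (33.9% over all genes). Only 1 of 5 kinesin genes from 100 kb to under 200 kb had one, Kif1b, and 0 of 3 genes of 200 kb and over, where the shares over all genes were 38.5% and 42.1%. The 3 longest kinesin genes, Kif26b (403.7 kb), Kif6 (294.8 kb) and Kif16b (283.3 kb), thus held none. The genes for microtubule-associated proteins of 200 kb and over, Macf1, Map2, Dst, Dclk1 and Clasp1, all held a peak, as did 4 of 7 from 100 kb to under 200 kb. Below that, 2 of 6 genes from 50 kb to under 100 kb, 0 of 4 from 20 kb to under 50 kb, and 1 of 2 shorter ones held one. These bands hold few genes each, and the difference between the groups was not tested.

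**Figure D2:**
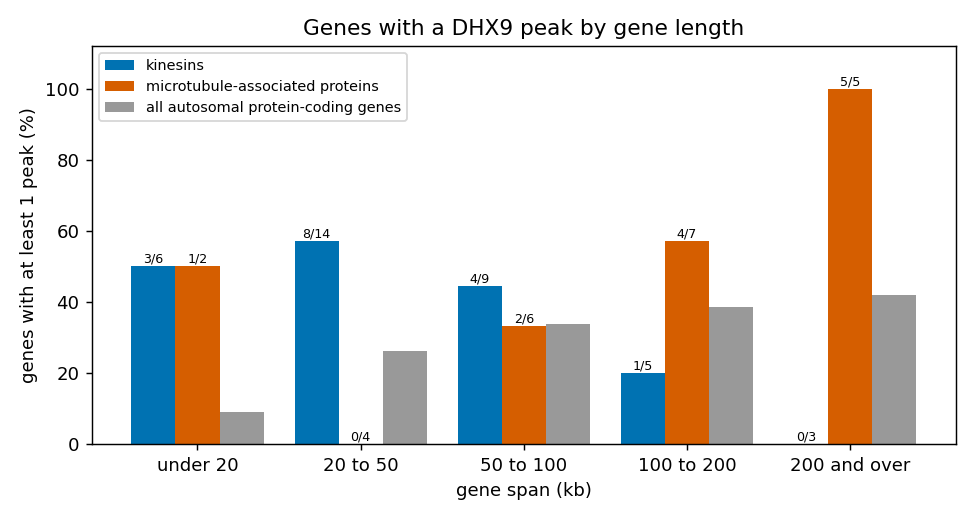
Share of genes with at least 1 peak (%) by gene span (kb) for kinesins, microtubule-associated proteins and all autosomal protein-coding genes, with the number of genes above the coloured bars. Among genes of 200 kb and over, 0 of 3 kinesins and 5 of 5 microtubule-associated proteins had a peak.

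Macf1 and Dst encode spectraplakins, giant proteins that link microtubules to actin. Macf1 (minus strand, chromosome 4, 123349633 to 123687802, mm10) held 107 peaks, 0.316 per kb, and stood at rank 39 among the 20665 autosomal protein-coding genes by number of peaks. By peaks per kb it stood only at rank 762 of the 1757 such genes with at least 5 peaks. Its peaks were gathered near the 5' end of the gene: 84 of them lay in the first 20% of the span. Peaks whose midpoints lie within 1 kb of a neighbour were joined into runs, and the largest run of Macf1 held 45 peaks between 35.1 and 51.1 kb from the 5' end. A run of 21 peaks stood just before it, from 25.4 to 33.9 kb. After the first 20% the gene held 23 peaks, with 1 stretch of 97902 bases between neighbouring peaks, and 9 peaks returned in the last 20%. The peaks of Macf1 covered 19332 bases, 5.72% of the span, and 1 of them reached 525 bases. The pseudogene Gm35241 also spans 9 of the 107 peaks, so these could be counted for either gene.

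Dst, the other spectraplakin gene (plus strand, chromosome 1, 33907888 to 34308662), is longer than Macf1 and held 10 peaks, 0.0250 per kb. They lay between 121.5 and 189.1 kb from the 5' end, with 5 in a run of 2.31 kb at its start and 3 in a run of 0.614 kb at its end. The list of RefSeq starts used here gives 2 for Dst, at 103.7 and 252.4 kb into the span. It gives none at the 5' end of the span, so it need not hold every start of the gene. All 10 peaks were downstream of the earlier listed start and upstream of the later one. The nearest peak was 17.8 kb after the earlier start. The 250 bases before each start (chr1:34011345-34011594 and chr1:34160010-34160259, plus strand, GRCm38.p6, from RefSeq) are shown because the peaks fall between them. Capitals mark 3 motifs, each searched on both strands, with sites allowed to share bases. The GC box was searched as GGGCGG. The CCAAT box was searched by the letters of its name. The TATA box was searched as TATAAA.
Dst earlier start: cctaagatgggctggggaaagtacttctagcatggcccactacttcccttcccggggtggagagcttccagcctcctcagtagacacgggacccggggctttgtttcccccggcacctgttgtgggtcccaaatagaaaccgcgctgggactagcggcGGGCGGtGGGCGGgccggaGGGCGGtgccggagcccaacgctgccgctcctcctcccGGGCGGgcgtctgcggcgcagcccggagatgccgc
Dst later start: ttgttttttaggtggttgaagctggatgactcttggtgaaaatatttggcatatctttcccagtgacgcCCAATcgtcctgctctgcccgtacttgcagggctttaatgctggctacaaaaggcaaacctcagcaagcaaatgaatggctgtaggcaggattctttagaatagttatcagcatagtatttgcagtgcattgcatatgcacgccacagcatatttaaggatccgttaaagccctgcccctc
The earlier window had 68.8% G or C and 4 GC boxes, and the later one 45.2% and no GC box. Over the windows of the same length before 20085 starts of autosomal protein-coding genes, the median content of G and C was 56.0%, 43.4% held a GC box, 35.3% a CCAAT box and 11.7% a TATA box. A match is a stretch of letters and was not measured as a binding site.

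**Figure D3:**
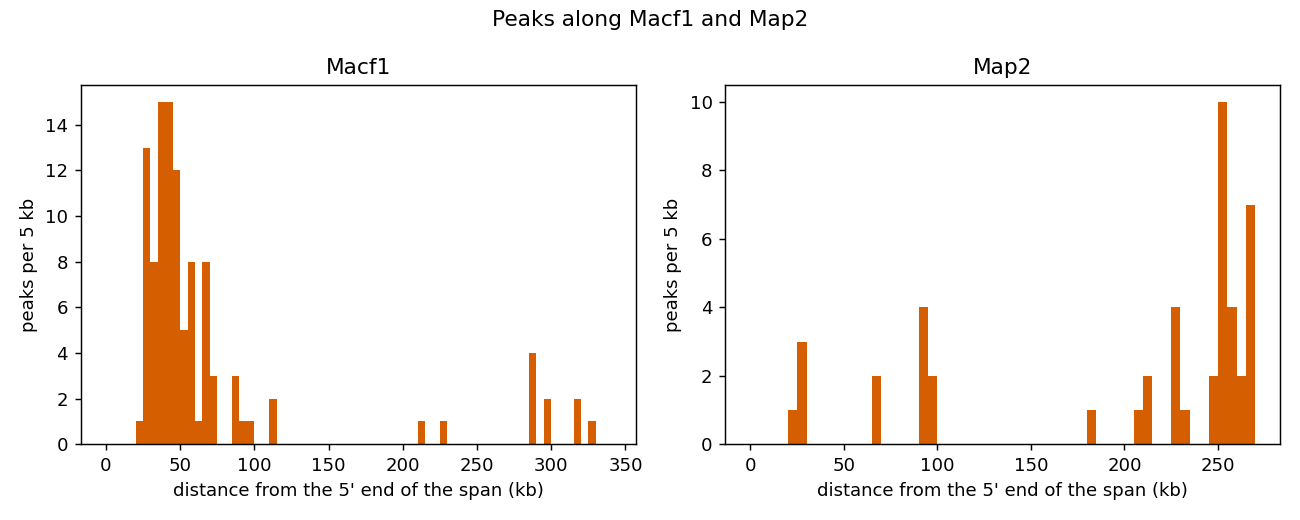
Peaks per 5 kb along Macf1 and Map2, by distance from the 5' end of the span (kb). Macf1 had 84 of 107 peaks in the first 20% of its span, and Map2 had 31 of 46 in the last 20%.

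The structural microtubule-associated proteins bind along the filament and stabilise it. Of their 9 genes, 4 held peaks, 85 in all. Map2, which encodes the main such protein of dendrites (plus strand, chromosome 1, 66175202 to 66442583), held 46 peaks, 0.172 per kb. In contrast to Macf1, its peaks lay toward the 3' end, with 31 of 46 in the last 20% of the span and 4 in the first 20%. A run of 14 peaks stood at 250.1 to 256.2 kb and a run of 9 at 264.3 to 267.2 kb, up to 0.232 kb from the annotated end. The longest peak of any of the 61 genes, 587 bases, was in that last run. Before these runs the peaks were sparse, with 87785 bases between a pair of neighbours.

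Map4, which encodes a microtubule-associated protein found in many cell types (plus strand, chromosome 9, 109929841 to 110083954), held 26 peaks, 0.169 per kb. They were spread over 13 runs, of which 7 were single peaks and none held more than 4. The same list of starts gives a start at 1.93 kb and another at 122.2 kb into the span, and 25 of the 26 peaks lay between them. The single peak after the later start was 15.5 kb downstream of it. The 250 bases before each start (chr9:109931524-109931773 and chr9:110051771-110052020, plus strand) are given with the same motifs in capitals, since the later start parts 1 peak from the other 25.
Map4 earlier start: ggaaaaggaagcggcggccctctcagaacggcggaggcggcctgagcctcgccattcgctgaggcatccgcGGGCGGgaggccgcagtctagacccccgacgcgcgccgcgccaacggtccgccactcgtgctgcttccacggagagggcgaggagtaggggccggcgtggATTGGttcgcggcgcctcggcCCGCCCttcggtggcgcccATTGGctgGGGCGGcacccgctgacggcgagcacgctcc
Map4 later start: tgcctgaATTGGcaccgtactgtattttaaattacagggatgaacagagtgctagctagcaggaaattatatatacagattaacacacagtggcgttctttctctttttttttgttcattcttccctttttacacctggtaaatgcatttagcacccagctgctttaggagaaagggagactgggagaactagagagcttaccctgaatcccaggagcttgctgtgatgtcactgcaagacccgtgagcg
As in Dst, the earlier window was richer in G and C (74.0%) than the later one (43.6%), with 3 GC boxes against none.

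Map1s, the short relative of Map1a and Map1b (plus strand, chromosome 8, 70905974 to 70917529), had the highest density, 0.779 peaks per kb, at rank 257 of the 1757 autosomal protein-coding genes with at least 5 peaks. Its 9 peaks formed a single run from 0.534 to 3.61 kb after the start, with distances of 243 to 537 bases between neighbours, and covered 14.3% of the gene. Of the genes with a listed start, Map1s and Kif11 were those with a peak within 1 kb downstream of it. The 250 bases before the start of Map1s (chr8:70905724-70905973, plus strand) are shown for that reason.
Map1s start: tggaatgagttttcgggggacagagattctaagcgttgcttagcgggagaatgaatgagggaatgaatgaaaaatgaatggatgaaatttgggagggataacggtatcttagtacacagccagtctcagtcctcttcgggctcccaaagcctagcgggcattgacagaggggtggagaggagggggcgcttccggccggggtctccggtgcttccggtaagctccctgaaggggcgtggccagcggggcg
None of the 3 motifs matched in this window. Map1b, which encodes an early axonal microtubule-associated protein (minus strand, chromosome 13, 99421464 to 99516602), held 4 peaks in 1 run, between 89.7 and 91.2 kb from the 5' end and thus all in the last 20% of the gene. Map1a, Mapt, Map6, Map7 and Map9 held none.

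Proteins at the growing plus end were covered through Clasp1, Clasp2 and Clip1, 3 of the 6 genes of this group. The CLASP proteins stabilise microtubule ends. Clasp2 (plus strand, chromosome 9, 113740077 to 113919697) held 15 peaks that formed 1 run of 4.20 kb, from 130.8 to 135.0 kb from the 5' end, in a gene of 179.6 kb. All 15 lay downstream of each of the 3 starts listed for it, the nearest by 58.3 kb. Its paralog Clasp1 (chromosome 1, 118389058 to 118609462) held 13 peaks, of which 12 were on the plus strand in 8 runs, 7 of them single peaks. The largest run of Clasp1 held 5 peaks between 163.6 and 164.7 kb. The remaining peak of Clasp1 was on the minus strand, at 118459137 to 118459269, within the long noncoding RNA gene 2900060B14Rik. Clip1, whose product tracks plus ends, held 1 peak. The end-binding protein genes Mapre1, Mapre2 and Mapre3 held none.

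The CAMSAP proteins hold the minus end of the filament. Camsap2 (minus strand, chromosome 1, 136268123 to 136346117) held 13 peaks in 2 runs, 4 between 24.4 and 25.6 kb and 9 between 48.8 and 51.7 kb from the 5' end, while Camsap1 and Camsap3 held none. The doublecortin-like kinases bind microtubules through a domain shared with doublecortin. Dclk2 (134.8 kb) held 7 peaks in 4 runs, and Dclk1, with a span of 296.8 kb, held 1 peak, at 45.3 kb. That peak was upstream of the later of its 2 listed starts, which lies 219.4 kb into the span. The stathmin genes Stmn1 and Stmn2, whose products take up free tubulin, held none.

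Among the kinesins, the most peaks lay in genes of the kinesin-3 (38 peaks), kinesin-13 (30) and kinesin-2 (20) families. When only the longer peaks were counted, those at least at the median length of the series, these families held 17, 6 and 9, so the order of the last pair turned. Kinesin-3 motors carry vesicles and organelles, and 3 of the 7 genes held 38 peaks. Kif1b (minus strand, chromosome 4, 149176319 to 149307773) held 28, 0.213 per kb, in 9 runs. Its largest runs had 8 peaks between 105.8 and 108.2 kb and 7 peaks between 65.6 and 67.7 kb from the 5' end. Kif1a, which encodes the axonal transporter of synaptic vesicle precursors, held 7, of which 4 were between 50.9 and 52.3 kb. All 7 were downstream of both starts listed for Kif1a. Kif1c held 3. The kinesin-3 genes without a peak were Kif13a, Kif13b, Kif14 and Kif16b.

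Kinesin-13 proteins do not walk but take microtubules apart from their ends. Kif2a, Kif2c and Kif24 held 30 peaks together, and Kif2b, a gene of 2.27 kb, held none. Kif2a (minus strand, chromosome 13, 106958996 to 107022355) held 15 peaks, 8 of them in a run from 40.1 to 42.4 kb and 4 in a run from 38.2 to 39.0 kb from the 5' end. Kif2c, which encodes the depolymerase of the mitotic centromere (minus strand, chromosome 4, 117159633 to 117182624), held 12 peaks over 23.0 kb, 0.522 per kb. Of the longer peaks it held 1 and Kif2a 4. The start listed for Kif2c lies 3.85 kb into the span, and 3 of the 12 peaks were upstream of it. The first of these was 0.699 kb from the 5' end of the span, where no start was listed. Kif24 held 3 single peaks.

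Kinesin-2 motors serve cilia and transport in axons. Kif3c (plus strand, chromosome 12, 3365132 to 3406494) held 19 peaks, 0.459 per kb, that covered 8.41% of the gene. They included a run of 6 between 9.53 and 10.8 kb and a run of 7 between 33.5 and 36.1 kb from the 5' end. Kif3b held 1 peak, and Kif3a and Kif17 held none, so this family's 20 peaks were nearly all in Kif3c.

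Kinesins of the mitotic spindle were covered by several families. Kif15 (plus strand, chromosome 9, 122951081 to 123018733), a kinesin-12 gene that helps to keep the spindle bipolar, held 14 peaks, with 7 of them between 15.9 and 18.0 kb, and 3 of the 14 were longer peaks. The kinesin-10 gene Kif22, whose product moves chromosome arms (minus strand, chromosome 7, 127027729 to 127042467), held 9 peaks in 1 run from 2.68 to 6.42 kb. With 0.611 peaks per kb it was the densest kinesin gene among those with at least 5 peaks, though 2 of its 9 were longer peaks. Kif11 encodes the kinesin-5 motor that pushes spindle poles apart (plus strand, chromosome 19, 37376382 to 37421863). It held 5 peaks, 1 at 0.795 kb from the start and 4 between 38.3 and 39.7 kb. The 250 bases before its start (chr19:37376132-37376381, plus strand) had 1 GC box and 1 CCAAT box.
Kif11 start: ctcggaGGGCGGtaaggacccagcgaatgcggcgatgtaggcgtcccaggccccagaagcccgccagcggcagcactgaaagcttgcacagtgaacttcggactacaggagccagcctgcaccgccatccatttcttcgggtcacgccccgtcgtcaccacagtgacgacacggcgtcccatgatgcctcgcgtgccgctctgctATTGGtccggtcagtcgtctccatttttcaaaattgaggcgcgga
Kif18b, Kif20a and Kif23, all genes of mitosis or cytokinesis, held 1 peak each, and Kif18a and Kif20b held none. Kif12, the other kinesin-12 gene, held none.

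The kinesin-1 heavy chains drive general transport toward the plus end. Kif5b, the one expressed widely, held 3 peaks, and the more neuronal Kif5a and Kif5c held none. In the kinesin-4 family Kif21b held 1 peak, and Kif7, Kif21a and Kif27 held none. No peak was called in Kif6 and Kif9 (kinesin-9), Kif26a and Kif26b (kinesin-11), Kif19a (kinesin-8) or Kif28. Of the 33 genes without a peak, 21 were kinesins.

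The peaks lay on the strand of the gene. The list of RefSeq starts used here gives a start, and hence a strand, for 24 of the 28 genes with a peak. All 357 peaks of these 24 were on the gene's own strand. Over all autosomal protein-coding genes with a listed strand and a peak the share was 98.5% of 32068. For Clasp1, Kif5b, Kif20a and Kif21b the strand with most of their peaks was used in its place. Of the 375 peaks, 365 lay in no other annotated gene (97.3%), against 91.7% over all autosomal protein-coding genes. No peak overlapped any of the 58 windows from 250 bases before to 50 bases after a listed start of the 61 genes. This was rare in general: 82 of the 20085 windows of autosomal protein-coding genes (0.408%) were overlapped by a peak of the same strand.

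**Figure D4:**
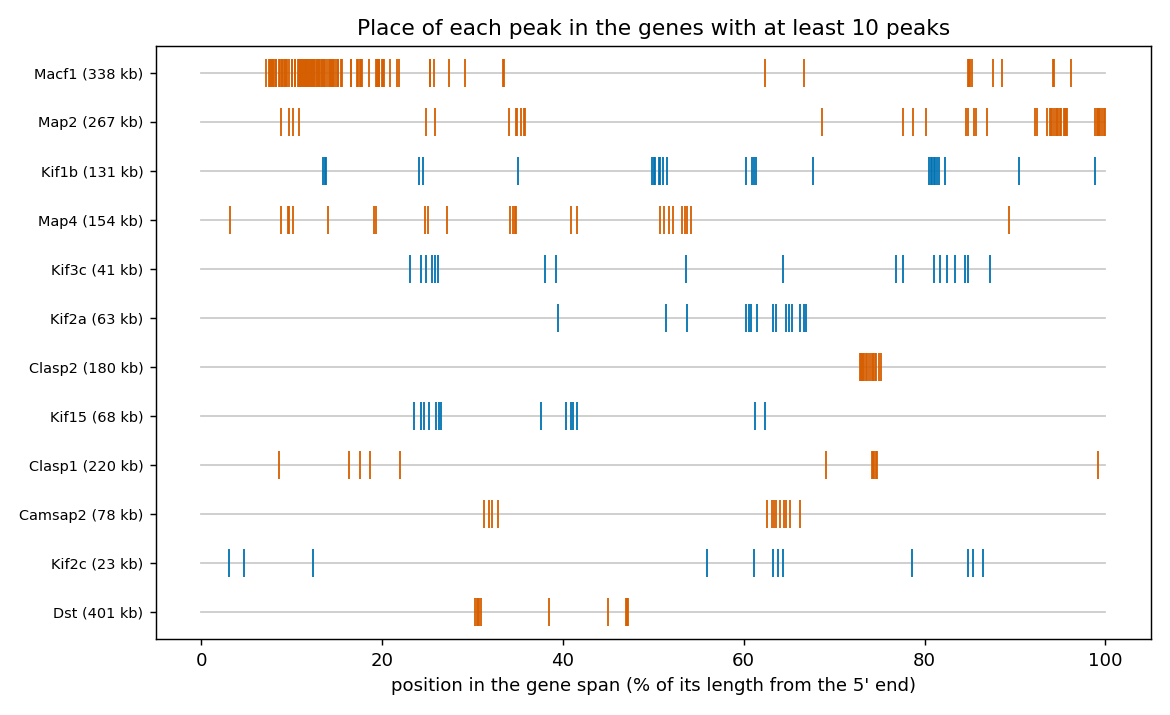
Place of each own-strand peak (vertical line) in the genes with at least 10 peaks, as % of the gene span from the 5' end, with the span in kb beside the name. The 15 peaks of Clasp2 fall in a single stretch, those of Macf1 lie mostly near the 5' end, and those of Map2 mostly near the 3' end.

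Along the gene, the place of the peaks depended on Macf1. Of 374 own-strand peaks, 117 (31.3%) lay in the first 20% of the span, where all autosomal protein-coding genes with a listed strand had 29.4% of theirs. Without Macf1 the share was 12.4% (33 of 267 peaks), and in the kinesin genes 8.94% (11 of 123). The last 20% of the span held 20.3% of the 374 peaks, 25.1% without Macf1 and 22.0% in kinesins, against 12.2% over all genes. Of the 67 peaks there without Macf1, Map2 alone held 31. Over all autosomal protein-coding genes the share was largest in the first 20% of the span and smaller in each next 20%. In the kinesins it was largest between 60 and 80% of the span, at 30.9% (38 of 123 peaks). Kif2a alone held runs of 8 and 4 of these peaks. Between 20 and 40% of the span the kinesins held 23.6% (29 of 123 peaks). Without the runs of Kif2a, the stretch between 60 and 80% would thus no longer hold the most peaks. The shares without Kif2a were not computed. Exons and introns were not told apart, and peaks of 1 gene share their transcript and are not replicates.

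**Figure D5:**
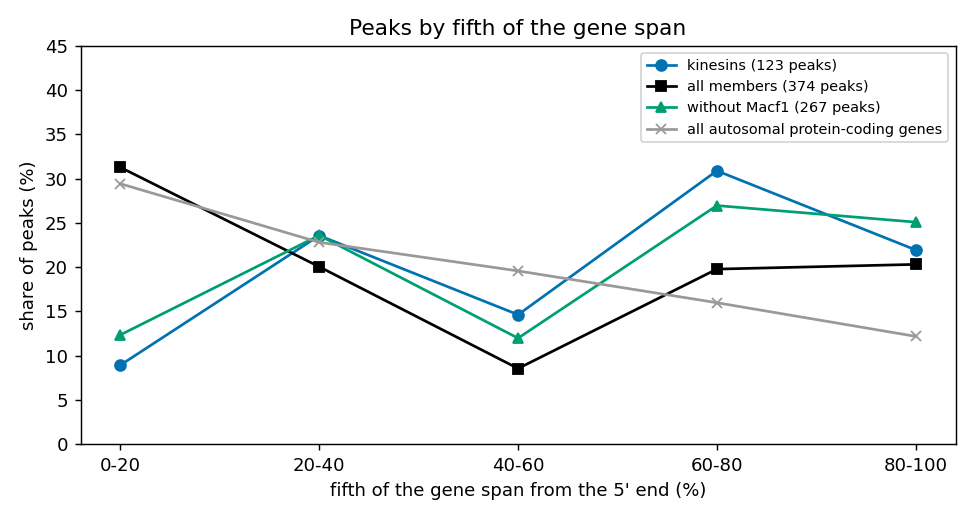
Share of peaks (%) in each 20% of the gene span, read from the 5' end, for kinesins, all 61 genes, the same without Macf1, and all autosomal protein-coding genes. The first 20% held 31.3% of the peaks of the 61 genes, and 12.4% when Macf1 was left out.

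The peaks came in tight groups, much as over all autosomal protein-coding genes. The median distance between midpoints of neighbouring peaks on a strand of a gene was 478 bases over 346 distances (25th percentile 276, 75th percentile 1308.5), and 490 bases over all autosomal protein-coding genes. Distances under 500 bases made up 53.8%, against 50.8% over all autosomal protein-coding genes. Those over 10 kb made up 10.98% (38 of 346), against 6.17% over all autosomal protein-coding genes. The 374 own-strand peaks fell into 125 runs, of which 68 were single peaks. The 18 runs of at least 5 peaks stood in 12 genes and held 198 peaks (52.9%), or 44.2% of the peaks without Macf1. Runs were not counted over all autosomal protein-coding genes, so these counts have no general share beside them. Peak lengths ran from 48 to 587 bases with a median of 148, where all autosomal protein-coding genes had 154. The median length was 135 bases in kinesin genes and 157.5 in genes for microtubule-associated proteins. The 5 genes with most peaks, Macf1, Map2, Kif1b, Map4 and Kif3c, held 226 of the 375 peaks (60.3%).

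Other genes of the microtubule system, listed by function and not among the 61, held a peak in 40 of 90 cases (44.4%), against the 19.4% of autosomal protein-coding genes. Some of the 90 are X-linked, which those of the 19.4% are not, and gene length was not matched in this comparison. With only peaks in no other gene, 38 of the 90 held one, as those of Prc1 and Dctn1 all lay in another gene too. Dynein is the motor toward the minus end and dynactin its activator, and 10 of 16 of their genes and regulators held peaks. Pafah1b1, which encodes the dynein regulator LIS1, held 76 peaks over 50.4 kb (1.51 per kb), more than any of the 61 genes but Macf1. The dynein light intermediate chain genes Dync1li2 and Dync1li1 held 24 and 16. Of the tubulins, the subunits of the filament, 3 of 12 short genes held a peak: Tubb5 (3), Tuba1a (1) and Tubb6 (1). Spindle and centromere genes held a peak in 8 of 10 cases, led by Ckap5 (31, of which 21 lay in no other gene), Tpx2 (29) and Tacc1 (24). Among genes of nucleation 4 of 10 did, led by Cdk5rap2 (10).

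Klc1, a light chain that couples kinesin-1 to its cargo, held 31 peaks, while the kinesin-1 heavy chain genes held 3 in all. It and the minus-end kinesin gene Kifc1 (4) were the only ones with a peak among 8 genes of light chains, adaptors and Kifc motors. The severing enzyme genes Spast (11), Katna1 (8) and Fign (5) were 3 of 5. For enzymes that modify tubulin the count was 3 of 7, with Vash1 (4) and Atat1 (3) in front. Among 22 other genes of microtubule-binding proteins and their kinases 7 held a peak. Most lay in Mark3 (71) and Mark2 (29), kinases that release microtubule-associated proteins from the filament, and in Clip2 (42), a paralog of Clip1.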

How the data were processed

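FLASH libraries of 2 DHX9 and 2 IgG replicates were grouped by their titles. The authors deposited 1 list of peak positions and strands, made with PEAKachu per the file itself. The submitters' processing notes name Bowtie2 2.2.6 and, as builds, hg19 and mm10, of which mm10 is the mouse genome. Peak calling settings and the treatment of multiply mapping reads are not given in the sources used here. Whether replicate letters mark separate cultures beyond being called biological replicates is not stated.

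A peak was given to every gene of a RefSeq table of GRCm38.p6 (mm10), with 49997 placed genes, whose span held its midpoint. Strands and starts came from RefSeq start windows, which matched 47 of the 61 genes. These need not hold every start: the first listed for Dst, Kif2c and Macf1 lay 103.7, 3.85 and 3.44 kb into the span. Ranks, runs, distances and shares were computed in Python 3.11.15 with pandas 2.3.3, and the functions were checked on made-up positions with known answers. Genes described were the 15 with most peaks, the 5 densest with at least 5 peaks, the leading 2 of each family, any with peaks on both strands or mostly shared, and up to 3 per list of other microtubule genes. Genes beyond these, and the starts and windows shown, were chosen after values were seen. The genes and lists were chosen with earlier results of these data known. Alternatives were the longer peaks, merging within 50 bases, any overlap, peaks in no other gene, and at least 3 peaks.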

Additional observations from a re-analysis of the deposited data

How the results depend on the processing

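No paired analysis was possible because the 4 libraries share 1 peak list, and for the same reason no replicate could be left out. Keeping the longer peaks of the series, from its median length upward, left 178 of the 375 peaks by construction. With them the density was 0.0691 per kb, the 5 leading genes held 67.4%, the median distance was 857 bases, the median length 199 bases and the majority-strand share 100% (99.7% with every peak). The number of peaks then fell by over 1.5 times in 22 of the 28 genes. This cut kept 21796 of the 43106 peaks of the series, and how many of all genes fell as much was not computed. Counts fell from 12 to 1 in Kif2c, from 15 to 4 in Kif2a and from 14 to 3 in Kif15. In Kif22 the fall was from 9 to 2 and in Macf1 from 107 to 57, and Clip1, Dclk1, Kif23 and Kif3b lost their only peak. Merging peaks within 50 bases gave a median distance of 636 and a median length of 162 bases, by construction. Using only peaks in no other gene brought the majority-strand share to 100%, since the minus-strand peak of Clasp1 was removed. Among genes with a peak, at least 3 were held by 21 of 28 and, in the other microtubule genes, by 25 of 40. Over all autosomal protein-coding genes with a peak the share was 60.5%. Leaving out Macf1, a setting chosen after seeing the data, moved the share in the first 20% of the span to 12.4%, that of the 5 leading genes to 50%, and the density to 0.0988 per kb, from above to below the 0.114 of all genes. Any overlap in place of the midpoint changed none of these values. Depth was not measured, so a gene without a peak cannot be told from one with too few reads.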

Other observations

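Peaks just beyond the 3' ends of the genes, where no other gene is annotated, were counted on the gene's strand for the 51 genes with a strand. Within 10 kb downstream of Map2 there were 4 peaks in no annotated gene, the nearest 1450 bases past the end, and 1 such peak stood 1475 bases past the end of Map1s. The other 49 genes had 0 peaks in this stretch that lay in no annotated gene, and none of the 51 had a peak on its strand within 10 kb upstream. Only 28 of the 51 held a peak in the span itself. The same counts over all autosomal protein-coding genes were not computed, so whether these are few or many is not known. Whether these peaks belong to transcripts that run past the annotated end was not tested.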
